A study of Mus musculus with 2 samples.

Results

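The miR-199 and miR-214 mesenchymal family was taken as the 5 mature mouse microRNAs (miRNAs) mmu-miR-214-3p, mmu-miR-214-5p, mmu-miR-199a-3p, mmu-miR-199a-5p and mmu-miR-199b-5p, written below without the species prefix. They were chosen by name, with earlier results of these data known, and were 5 of the 1247 mouse miRNAs on the array. The miRNA levels were measured with 2 one-colour Agilent arrays of total RNA, taken from the knee joint cartilage of males at 8 weeks of age. One array held a Col2a1Tsc1KO sample, here called the knockout, whose genotype is labelled "Col2a1; Tsc1 KO". The other held a control sample labelled wildtype. The series' design text calls the deletion of Tsc1 specific to Col2a1, the gene of the main cartilage collagen, and the sources used here do not name the Cre line, the cells that lost Tsc1, or how many mice each sample held. Tsc1 encodes a protein that restrains the growth kinase complex mTORC1. The array carried no probe for Tsc1 mRNA, so the genotype could not be checked on its target.

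Each group had 1 array, so no difference below has a replicate check or a p-value, and each error is a standard error (SE) over repeated spots within the arrays. Both arrays lay on 1 slide, and the group and the position on that slide cannot be told apart. Of 49880 miRNA spots per array, 21.1% on the knockout array and 19.6% on the control array were well above background, and none was saturated. A total of 257 miRNAs had a probe well above background on both arrays, which is what "measured" means below. Intensities were scaled to each array's 75th percentile over the probes measured on both arrays. Of the cartilage markers, miR-140-5p, which lies in an intron of Wwp2 and is abundant in chondrocytes, had a scaled intensity of 2713 on the knockout array and 1046 on the control array. Of 7 such markers, 3 were well above background on neither array. None of 6 epithelial markers was well above background on either array. Some blood cell markers were brighter than miR-140-5p on both arrays. The leukocyte miR-223-3p stood at 3632 on the knockout array and 8163 on the control array, and the red cell miR-451a at 3380 and 2308. The total RNA came from whole cartilage pieces, so more or fewer cells of a type and more or less of a miRNA per cell cannot be told apart.

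The miR-199 and miR-214 genes lie on the strand opposite to dynamin genes. In the mouse, miR-199a and miR-214 are cut from the long noncoding transcript Dnm3os, which is made in mesenchymal tissues of the embryo, and loss of Dnm3os impairs growth and skeletal development. A hairpin yields a 5p and a 3p arm, and each arm finds mRNA targets mainly through its seed, so the arms of 1 hairpin can repress different genes. miR-199a-3p is known to repress MTOR in human liver cancer cells, and miR-214-3p to repress Atf4 in mouse osteoblasts.

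Mature sequences were found in RefSeq (GRCm38.p6) for 4 of the 5 members. They are shown because the family holds 4 different seeds, and a shared origin is not visible in the seed. Capitals mark the seed, bases 2 to 8 from the 5′ end.
miR-199a-5p: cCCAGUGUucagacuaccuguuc
miR-199a-3p: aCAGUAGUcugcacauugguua
miR-214-5p: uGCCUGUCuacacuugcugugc
miR-214-3p: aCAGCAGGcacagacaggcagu
miR-761, no member: gCAGCAGGgugaaacugacaca
No 2 of these 4 members shared a seed. For miR-199b-5p there was no mature sequence to compare, but its 22-base probe ends in the complement of the miR-199a-5p seed. miR-761, from chr4:109017669-109017690, was the only other miRNA on the array that shared the seed of a member, that of miR-214-3p. None of its 4 probes passed the background threshold on either array, and no probe averaged above -6.20 on the knockout array or -6.35 on the control array (unscaled intensity after background subtraction). The mature miR-199a-3p is identical in sequence to miR-199b-3p from chr2:32318524-32318545, so its probes read both.

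Several genes can supply a member. Mir199a-2 (chr1:162217814-162217923, plus strand) and Mir214 (chr1:162223368-162223477, plus strand) both lie within the spans of Dnm3 and Dnm3os, with 5444 bases between the 2 hairpins. Mir199a-1 (chr9:21496495-21496564, minus strand) gives the same mature arms and lies within the span of Dnm2. Mir199b (chr2:32318460-32318569, plus strand) lies within the span of Dnm1. The arrays therefore give 1 value for miR-199a-5p over 2 genes and 1 value for miR-199a-3p over 3 genes. The miR-214 arms and miR-199b-5p each come from a single gene.

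All 4 members that were measured had higher scaled intensities on the knockout array than on the control array. miR-214-3p was 5.13-fold higher, miR-199a-5p 2.82-fold, miR-199a-3p 2.75-fold and miR-199b-5p 2.62-fold. The fifth member, miR-214-5p, passed the background threshold on the knockout array only, in 1 of its 4 probes. The median log2 difference, knockout minus control, of the 4 measured members was 1.48, against -0.22 for all 257 measured miRNAs.

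Each of the 4 measured members exceeded 2-fold on the knockout array, where 15.6% of all measured miRNAs (40 of 257) did so. A further 45 of the 257, or 17.5%, were lower by 2-fold or more. That split rests on the scaling. With no scaling, or with the percentile taken over all miRNA probes, 59 (23%) were higher by that much and 13 (5.06%) lower. The members' count was 4 under both of these. A further way of processing was normexp background correction, which fits 1 background model per array, with an offset of 50 and then quantile normalization. Below, normexp stands for these steps together. Under it the members' count was 3, against 6.23% of all measured miRNAs higher and 3.5% lower by that much. The members' median exceeded that of all measured miRNAs under each of 15 alternative ways of processing, by 1.16 to 1.73 on the log2 scale. Some of these could not change this gap. The percentile over all miRNA probes, median scaling and no scaling act on a whole array alike, and leave it at the reported 1.69.

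**Figure D1:**
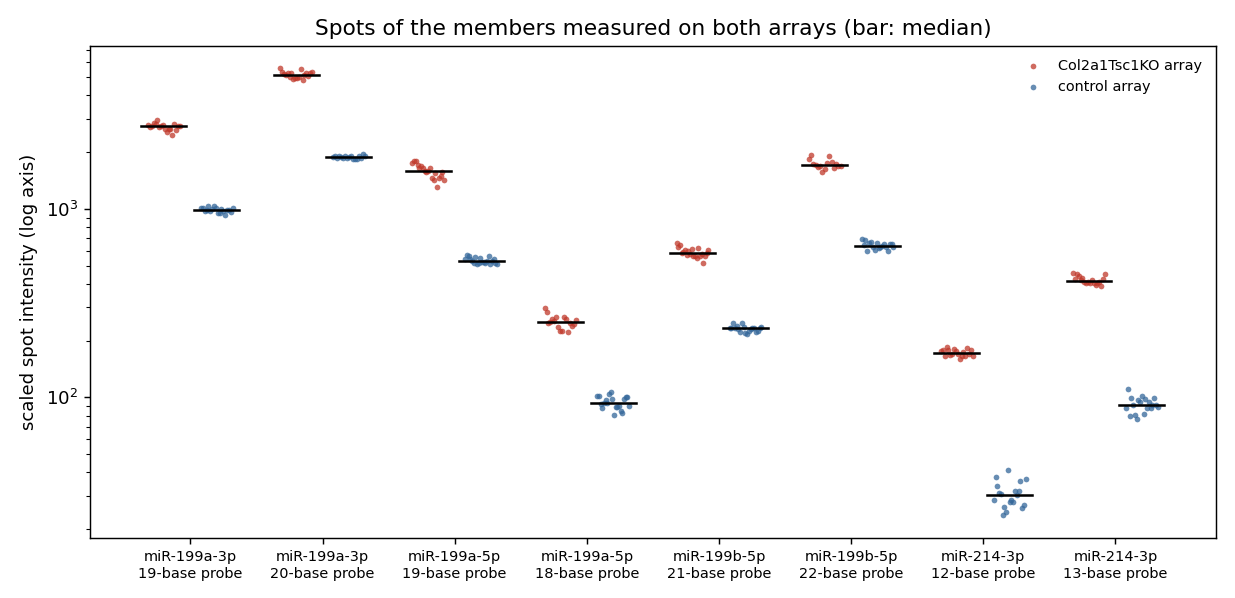
Scaled intensity of each spot (log axis) for the 8 probes of the 4 members measured on both arrays, with knockout spots in red left of control spots in blue and black bars at the medians. For each of the 8 probes all knockout spots lie above all control spots, and the spots are repeats within 1 array per group.

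The arms of miR-199a are described first. miR-199a-5p, which is known to repress the hypoxia factor HIF1A in rat heart muscle cells, was read by 2 probes with 20 spots each, from which spots marked as outliers were left out, as for all probes below. The spots of its 19-base probe had a lowest, median and highest unscaled intensity of 1500, 1830 and 2070 on the knockout array and of 442, 458.5 and 494 on the control array. Those of its 18-base probe had 257, 290 and 342 on the knockout array, against 69.9, 80.7 and 92.9 on the control array. The knockout and control spots did not overlap for either probe, before or after scaling. The log2 differences were 1.57 ± 0.03 for the 19-base probe and 1.42 ± 0.04 for the 18-base probe (SE over spots), and their mean was 1.495 ± 0.02. Scaled intensities averaged 630 on the knockout array and 224 on the control array.

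miR-199a-3p is the opposite arm of the same hairpins. Its 19-base probe had a lowest, median and highest unscaled spot intensity of 2860, 3180 and 3410 on the knockout array and of 810, 856.5 and 897 on the control array. Its 20-base probe had 5580, 5960 and 6430 on the knockout array, against 1600, 1630 and 1700 on the control array. No knockout spot came down to the range of the control spots in either probe. The 2 probes gave log2 differences of 1.46 ± 0.02 and 1.45 ± 0.01, and their mean was 1.46 ± 0.01. Scaled intensities averaged 3754 on the knockout array and 1366 on the control array. The log2 difference of miR-199a-5p exceeded that of miR-199a-3p by 0.04 ± 0.03. This SE holds only the noise of spots within the arrays, and the 2 probes of miR-199a-5p differed by more, 0.14. Of the 4 measured members, miR-199a-3p was the only one below 2-fold under any of the 15 alternatives. It stood at 0.96 with normexp correction and quantile normalization together, and at 1.02 in the authors' deposited table.

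miR-199b-5p comes from the gene on chromosome 2. Its 21-base probe had a lowest, median and highest unscaled spot intensity of 593, 673 and 765 on the knockout array and of 188, 202 and 214 on the control array. Its 22-base probe had 1810, 1980 and 2220 on the knockout array, against 517, 554 and 602 on the control array. The spots of the arrays again did not overlap. The log2 differences were 1.34 ± 0.02 and 1.43 ± 0.03, with a mean of 1.39 ± 0.02, from scaled intensities of 1008 on the knockout array and 385 on the control array. The log2 difference of miR-199a-5p exceeded it by 0.11 ± 0.03 and that of miR-199a-3p by 0.07 ± 0.02. These SEs hold only the noise of spots within the arrays. The probes differed by 0.14 for miR-199a-5p and by 0.09 for miR-199b-5p. miR-199a-3p was below miR-199b-5p with quantile normalization, with normexp (0.96 against 1.13) and in the authors' deposited table (1.02 against 1.49). Under the other alternatives miR-199a-3p was the higher.

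The probes for miR-199a-5p and miR-199b-5p are nearly the same sequence, which bears on how far these 2 members can be read apart. The longer miR-199a-5p probe and the shorter miR-199b-5p probe are shown with the differing base in capitals.
miR-199a-5p probe: gaacaggtagtctGaacac
miR-199b-5p probe: gaacaggtagtctAaacactg
Over the 19 bases that both hold, the probes differ in 1 base, G14A, counted from the 5′ end of the probe. How much of each signal came from the other miRNA was not tested.

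miR-214-3p had the highest log2 difference of all 257 measured miRNAs. Its 12-base probe had a lowest, median and highest unscaled spot intensity of 185, 198.5 and 214 on the knockout array and of 20.5, 26.4 and 35.6 on the control array. Its 13-base probe had 452, 477 and 530 on the knockout array, against 66.7, 79.1 and 95.9 on the control array. Neither probe's spots overlapped between the arrays. On the control array 89.5% of the spots of the 12-base probe were well above background, against all of them on the knockout array. Its log2 difference was 2.51 ± 0.05, and that of the 13-base probe 2.20 ± 0.03. The 12-base probe thus gave a log2 difference 0.31 ± 0.06 above that of the 13-base probe, against gaps between probes of 0.14 ± 0.05 for miR-199a-5p, 0.09 ± 0.03 for miR-199b-5p and 0.01 ± 0.02 for miR-199a-3p.

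The mean over both probes of miR-214-3p was 2.36 ± 0.03, from scaled intensities of 269 on the knockout array and 52.5 on the control array. It exceeded the log2 difference of miR-199a-5p by 0.86 ± 0.04, that of miR-199a-3p by 0.90 ± 0.03 and that of miR-199b-5p by 0.97 ± 0.04. These gaps do not depend on a scaling that multiplies a whole array. The gap to miR-199a-3p was 0.56 with normexp correction, 0.74 with probes whose spots were all well above background and 1.56 with quantile normalization, and it was above 0 under all 15 alternatives. The rank of miR-214-3p was the highest in 12 of the 15. It was below miR-34a-5p, at 2.37, with the brightest probe alone and with every spot well above background. By the software's total gene signal miR-214-3p was the 8th highest, and miR-17-3p had the highest value at 6.34. The measured probe of miR-17-3p gave a log2 difference of -0.76 in the reported setting, in the opposite direction.

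Of the others, miR-199a-5p ranked 11 from the highest difference down, miR-199a-3p ranked 14 and miR-199b-5p ranked 19 of 257. Their neighbours in this order did not stand apart from them: miR-24-3p, a product of the miR-23, miR-27 and miR-24 clusters, differed by 1.44 ± 0.01 and lay 0.01 from miR-199a-3p. miR-146a-5p, which NF-kB induces and which dampens Toll-like receptor signalling, lay 0.03 from it, as did miR-125a-5p, a relative of the worm miRNA lin-4. These are the 3 miRNAs outside the family with differences most like that of miR-199a-3p. The likeness rests on 1 difference over 2 arrays.

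For miR-214-3p the most alike were miR-34a-5p, a p53 target, miR-218-5p, which favours osteoblast differentiation, and miR-455-3p, which lies in the cartilage collagen gene Col27a1. miR-34a-5p had scaled intensities of 203 on the knockout array and 41.9 on the control array, a log2 difference of 2.28 ± 0.04 and a gap of 0.08 to miR-214-3p. The gaps of miR-218-5p and miR-455-3p were 0.55 and 0.65. Only miR-34a-5p therefore lay close to it.

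**Figure D2:**
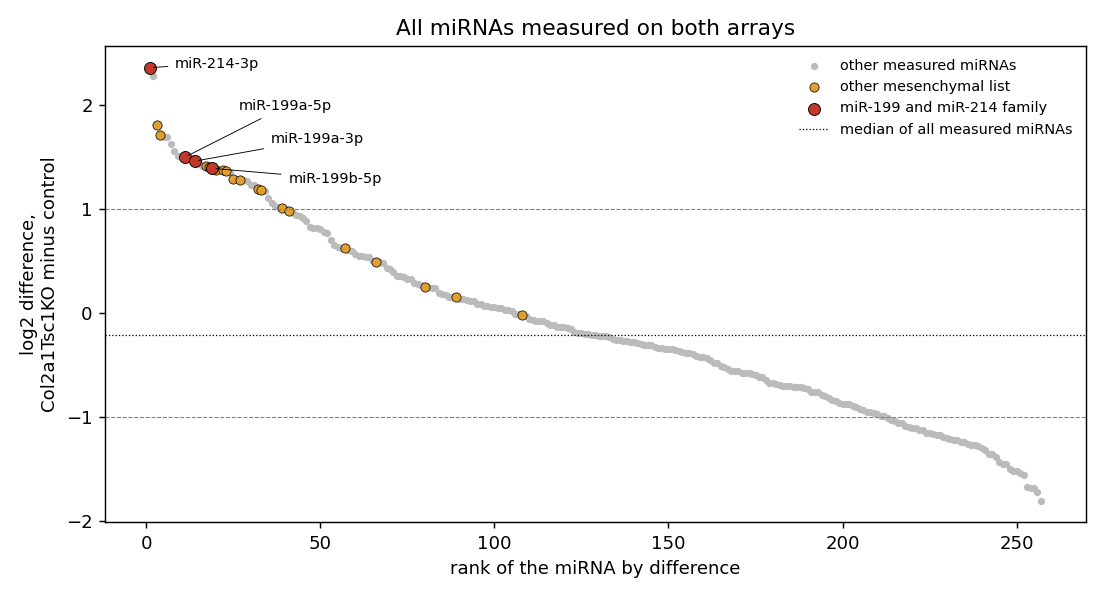
Log2 difference, knockout minus control, of the 257 miRNAs measured on both arrays (vertical axis) against rank from the highest (horizontal axis), with the family in red and the other mesenchymal miRNAs in orange. Dashed lines mark 2-fold, and the dotted line marks the median of all, -0.22, above which all 4 measured members and the 18 measured mesenchymal miRNAs lie.

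miR-214-5p is the opposite arm to miR-214-3p and had 4 probes of 14 to 17 bases with 10 spots each. On the knockout array only the 17-base probe passed the background threshold, with 90% of its spots well above background. On the control array all spots of the 4 probes fell short of it. The 17-base probe had a lowest, median and highest unscaled intensity of 19.5, 24.45 and 36.1 on the knockout array and of -0.49, 6.23 and 12.9 on the control array. After scaling, the lowest knockout spot was at 16.9 and the highest control spot at 14.9, so the spots did not overlap. For the other 3 probes they did, with medians of -3.72, -2.92 and 0.85 on the knockout array and of -3.34, 1.17 and 2.95 on the control array.

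No fold is given for miR-214-5p. The scaled mean of its 17-base probe was 22.1 on the knockout array and 7.43 on the control array, while the dimmest probe well above background on the control array stood at 24.9, so the lower bound would fall under 1. In the authors' deposited table miR-214-5p had log2 values of -0.48 for the knockout and -3.26 for the control, and -3.26 is the lowest value in the control column. The software's total gene signal for miR-214-5p was 275 on the knockout array and 1.72 on the control array, and is not used as a level here. The knockout total exceeded the total of its only probe above background, 5.16, by 269.7, which equals the total of miR-214-3p on that array. For the other 4 members the software's totals equalled the sum of their probes' totals within 0.1% on both arrays.

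**Figure D3:**
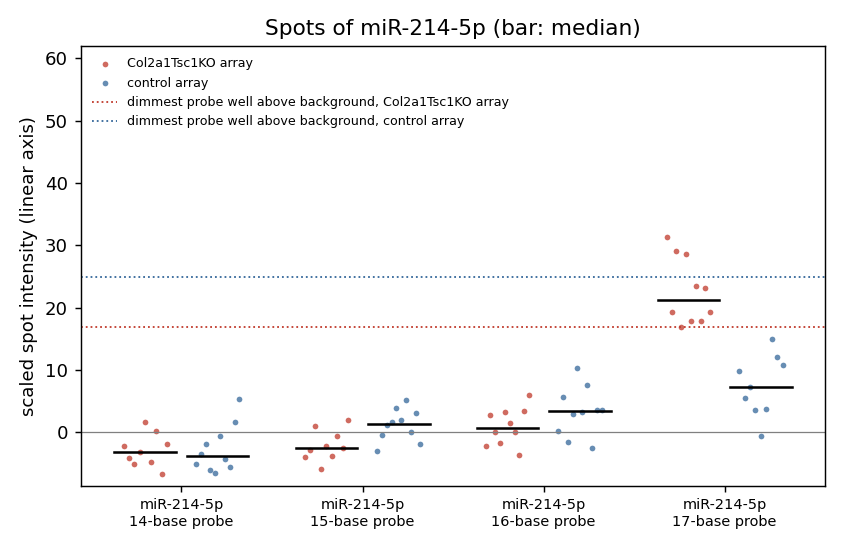
Scaled intensity (linear axis) of each spot of the 4 probes of miR-214-5p, with knockout spots in red left of control spots in blue and black bars at the medians. Dotted lines mark the dimmest probe well above background on each array, at 16.9 for the knockout and 24.9 for the control, and no control spot of miR-214-5p reaches the control line.

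Mir199a-2 and Mir214 share the host transcript Dnm3os (chr1:162217623-162225550, plus strand), and members that it can supply were higher on the knockout array together with miR-199b-5p from another chromosome. The promoter of Dnm3os is shown as that of the shared host (RefSeq, GRCm38.p6, chr1:162217373-162217672, plus strand, 250 bases before to 50 bases after the start). Dnm3os RNA was not measured, and a part of this promoter in the differences was not tested. The promoters of Mir199a-1 and Mir199b are not shown. Capitals mark E-boxes, the motif of basic helix-loop-helix factors such as TWIST1, and the CArG box, the motif of serum response factor.
Dnm3os promoter: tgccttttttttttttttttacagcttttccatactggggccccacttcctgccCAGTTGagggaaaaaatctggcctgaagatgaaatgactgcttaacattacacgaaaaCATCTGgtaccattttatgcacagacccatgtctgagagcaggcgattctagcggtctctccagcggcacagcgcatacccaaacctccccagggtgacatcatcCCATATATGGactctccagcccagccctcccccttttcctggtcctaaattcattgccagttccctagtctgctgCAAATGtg
Both strands were searched, and none of the matches overlapped. The E-box CANNTG had 3 matches, and 72.3% of 32851 mouse promoters of this length hold at least 1. The CArG box had 1 match, CCATATATGG, which begins 33 bases before the start, and 1.63% of the promoters hold one. The TATA box TATAAA had no match here and is held by 13.6%. A match describes these letters and does not show a bound site.

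Beyond the family, 18 of 22 other mesenchymal miRNAs, listed with earlier results of these data known, were measured on both arrays. Their median log2 difference was 1.23, with 12 higher by 2-fold or more on the knockout array, 0 lower by that much and 17 above 0, against a median of -0.22 and the 15.6% given above for all measured miRNAs. Their summed scaled intensity was 21153 on the knockout array and 11691 on the control array. The highest 2 were miR-218-5p at 1.80 ± 0.04, with scaled intensities of 135 on the knockout array and 38.6 on the control array, and miR-455-3p at 1.71 ± 0.05, with 104.7 on the knockout array and 32.1 on the control array. The lowest 2 were miR-455-5p, the other arm of the miR-455 hairpin, at -0.03 ± 0.14 and above 0 under 11 of the 15 alternatives, and miR-10a-5p, from a Hox gene cluster, at 0.15 ± 0.02. Of the remaining 4, miR-145a-5p and miR-335-5p passed the background threshold only on the knockout array, and miR-143-5p and miR-145a-3p on neither array.

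Markers of the cell types that such pieces can hold also differed between the arrays, and their part in the family's differences was not tested. Among 7 chondrocyte miRNAs, 4 were measured, with a median log2 difference of 1.19, a summed scaled intensity of 5268 on the knockout array and 2322 on the control array, and a range from -0.03 for miR-455-5p to 1.71 for miR-455-3p. The chondrocyte median ran between 0 and 1.62 over the alternatives, of which the one with dim probes kept at a floor takes in all 7. miR-140-5p differed by 1.38 and miR-140-3p by 1.01, while both arms of miR-675 and miR-1247-5p did not pass the background threshold on either array. These 4 measured miRNAs also stand in the mesenchymal list. Of 4 smooth muscle miRNAs only miR-143-3p was measured on both arrays, at 1.37, with 161 on the knockout array and 62.4 on the control array. Over the alternatives miR-143-3p itself ran between 0.91 and 1.86. The smooth muscle median ran between 0.31 and 1.80, as the alternative with dim probes kept at a floor takes in all 4. These 4 miRNAs, too, stand in the mesenchymal list.

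Blood, vessel and muscle markers did not all differ in 1 direction. The 5 leukocyte miRNAs were all measured and had a median of -0.59, between -1.17 for the myeloid miR-223-3p and 0.64 for the lymphocyte miR-150-5p, with a summed scaled intensity of 4494 on the knockout array and 9670 on the control array. Of 6 skeletal muscle miRNAs 4 were measured, with a median of -0.97, between -0.996 for miR-133b-3p and 0.05 for miR-206-3p, and with 737 on the knockout array against 1410 on the control array. miR-206-3p was below 0 under 3 alternatives and miR-150-5p under the software's totals. miR-208b-3p and miR-499-5p did not pass the background threshold on either array. Among the leukocyte miRNAs, miR-223-3p was the only one past 2-fold, where 17.5% of all measured miRNAs were lower by that much. This call depended on the processing. Over the alternatives miR-223-3p ran between -1.37 and -0.63, and miR-142-3p between -1.21 and -0.45.

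Of 4 red cell miRNAs 2 were measured, with 3472 on the knockout array and 2340 on the control array, and differences of 1.51 for miR-144-3p and 0.55 for miR-451a. miR-144-5p passed the background threshold only on the knockout array, and miR-486-5p was not on the array under that name. The red cell median, 1.03, ran between 0.36 and 1.53 over the alternatives. The arms of the endothelial miR-126 differed by 0.35 (3p) and 0.14 (5p), with a sum of 1977 on the knockout array and 1555 on the control array. Both miR-451a and miR-126-3p were below 0 with quantile normalization and with normexp correction. Of 3 neural miRNAs only miR-128-3p was measured, at -0.48, with 36.2 on the knockout array and 50.5 on the control array, and it was above 0 by the software's totals.

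**Figure D4:**
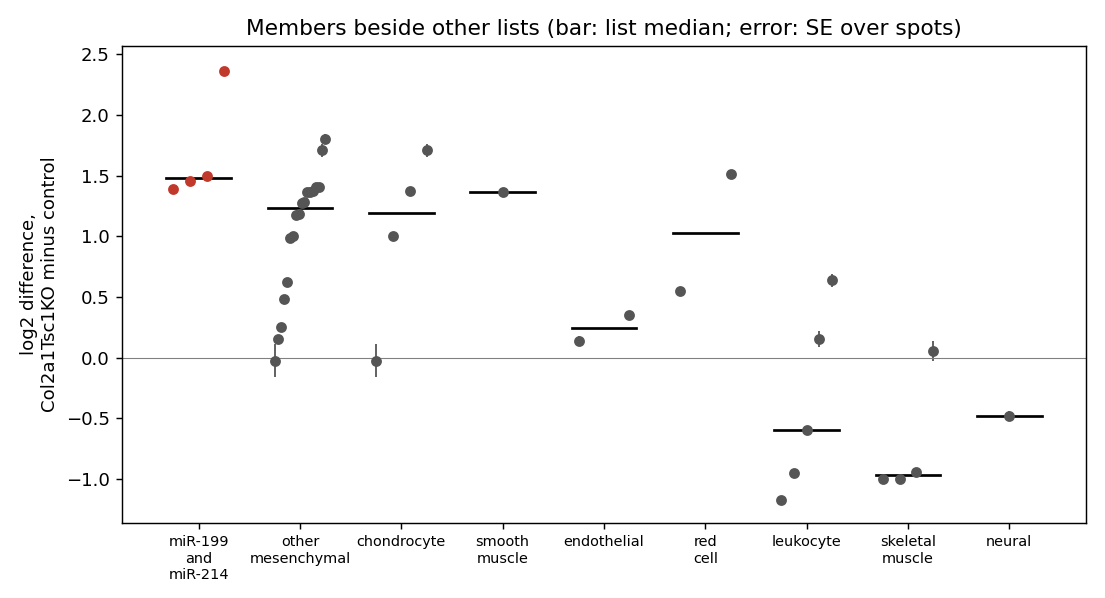
Log2 difference, knockout minus control, of each measured miRNA (points, error bars the SE over spots) in the family and in lists of cell type markers, with black bars at the list medians. The family's 4 points lie between 1.39 and 2.36, and the leukocyte and skeletal muscle medians lie at -0.59 and -0.97.

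The family's differences kept their sign under all 15 alternatives. Over these the log2 difference ran between 1.53 and 2.79 for miR-214-3p, between 1.14 and 2.05 for miR-199a-5p, between 0.96 and 1.95 for miR-199a-3p and between 1.13 and 1.91 for miR-199b-5p. When the array was split into the upper and lower part of its rows, miR-214-3p stood at 2.37 and 2.45, miR-199a-5p at 1.52 and 1.56, miR-199a-3p at 1.44 and 1.58, and miR-199b-5p at 1.37 and 1.498. In the authors' deposited table, on a log2 scale, the differences of knockout minus control were 2.54, 1.59, 1.02 and 1.49 in the same order. The gap between miR-214-3p and the other 3 was thus visible in each of these readings, while its size depended on the correction.

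**Figure D5:**
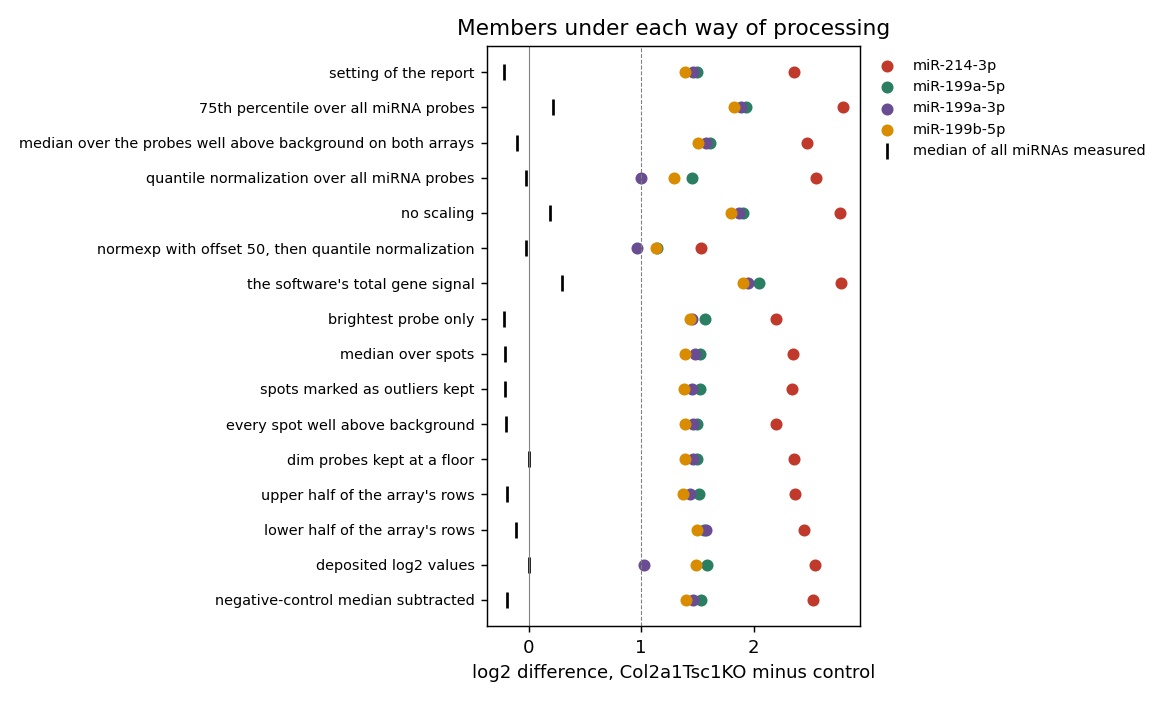
Log2 difference, knockout minus control (horizontal axis), of the 4 measured members under the reported setting and 15 alternatives (rows), with black ticks at the median of all measured miRNAs. The red points of miR-214-3p lie right of the other members in every row. miR-199a-3p falls below the dashed 2-fold line at 1 only with normexp correction and quantile normalization together, at 0.96.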

How the data were processed

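Per the labels' protocols, washed knee cartilage gave the total RNA, whose miRNAs were labelled with Cy3. The authors used Agilent Feature Extraction 10.7, per the submitters' processing notes, which wrote a background-subtracted intensity for every spot with no scaling between arrays. The authors also deposited a table of log2 values, whose making the sources used here do not describe.

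From these files, spots marked as outliers were dropped, and log2 intensities were averaged per probe. The threshold for well above background was over 50% of a probe's spots so marked. The scaling value of an array was the 75th percentile of the 476 probes that passed this on both arrays, and these values differed by 0.41 on the log2 scale (knockout minus control). A miRNA's difference was the mean over such probes of its own. The number of arrays, 1 per group, limits the precision, and a log2 difference of 1, or 2-fold, served only to count.

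Named besides the members were miRNAs that share bases 2 to 8 with a member, the 2 highest and 2 lowest of the mesenchymal list, the 3 nearest in difference to miR-214-3p and to miR-199a-3p, and the ends of each marker list. miR-17-3p, miR-140 and the markers below background were named after their values were seen. Members and lists were chosen with earlier results of these data known. Motifs were counted in RefSeq promoters (GRCm38.p6). The steps were tested on simulated data. Tools were Python 3.11.15, numpy 2.4.6, pandas 2.3.3, scipy 1.17.1, R 4.3.3 and limma 3.58.1.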

Additional observations from a re-analysis of the deposited data

Results flagged for a closer look

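The software's total gene signal of miR-214-5p on the knockout array was 275, in a column that the comparisons above do not use as the level of this miRNA, against 1.72 on the control array. The miRNA's own probes do not carry that value, as the sum of its probes' totals was 4.22 on the knockout array.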

How the results depend on the processing

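No difference of a measured member, nor the medians of the family and of the other mesenchymal miRNAs, changed sign under the 15 alternatives. The members' median log2 difference, 1.48 as reported, was 1.91 with the 75th percentile over all miRNA probes, 1.59 with median scaling, 1.38 with quantile normalization, 1.89 with no scaling, 1.14 with normexp correction and quantile normalization, 2.00 with the software's totals, 1.57 in the lower part of the array's rows and 1.54 in the deposited log2 values. The median of the other mesenchymal miRNAs, 1.23 as reported, was 1.66, 1.35, 1.04, 1.64, 0.86, 1.67, 1.34 and 1.03 under the same alternatives in the same order, and 1.08 with dim probes kept at a floor. The count of all miRNAs at least 2-fold higher, 40 as reported, was 16 with normexp and 80 of 304 with the totals. The count at least 2-fold lower, 45 as reported, was 13 with all probes in the percentile, 13 unscaled, 9 with normexp and 24 with the totals. The cause of these changes was not tested, except that the totals and the deposited values take in 304 miRNAs and the floor all 1247. The median of all miRNAs, -0.22 as reported, lay higher by 0.43 with all probes in the percentile, 0.41 unscaled, 0.51 by the totals, 0.20 with quantile normalization and with normexp, 0.12 with median scaling, 0.11 in the lower rows, and 0.22 with the floor and in the deposited values. Members at least 2-fold higher numbered 4 under 14 alternatives and 3 with normexp. Subtraction of the negative-control median was chosen after seeing the data, and gave miR-214-3p 2.53 and miR-199a-3p 1.46. No array could be left out, with 1 per group. The low intensities limit miR-214-5p and the 12-base probe of miR-214-3p most, since the median intensity of negative-control spots was 4.93 (knockout array) and 5.02 (control array).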
